A study of Homo sapiens with 15 samples.

Results

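The zinc finger cluster of chromosome 12q24.33 is a run of 7 protein-coding genes at the end of the long arm: ZNF605, ZNF26, ZNF84, ZNF140, ZNF891, ZNF10 and ZNF268. They were taken by name, as 7 of the 510 protein-coding ZNF genes and 20037 protein-coding genes of the RefSeq gene table, and the cluster was chosen by its measured peaks, because both MPP8 peak lists place one at ZNF84 and one at ZNF268. Joining ZNF genes no more than 250 kb apart gave the same 7 genes as 1 cluster. They span chr12:132918306-133214832 (hg38), or 297 kb. The peaks come from ChIP-seq with an antibody to MPP8 in K-562, a human cell line derived from chronic myeloid leukaemia. One library was from cells whose TASOR gene was knocked out with CRISPR/Cas9 (TASOR KO) and 1 from cells whose TASOR2 gene was (TASOR2 KO). The knockouts were grown from single sorted cells, so each genotype may rest on 1 clone. The labels do not say whether these cells also carried the empty lentiviral vector used as a negative control in the study. The other 13 of the 15 samples, which include an input and MPP8 ChIP of unedited cells, were not used here, so no level in a control is given. With 1 library per genotype there is no replicate error and no p-value, and every difference below is between 2 peak lists.

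MPP8 reads methylated lysine 9 of histone H3 through its chromodomain. It belongs to the human silencing hub (HUSH), in which TASOR is the scaffold, and TASOR2 is a paralog of TASOR. HUSH represses LINE-1 elements and other intronless or foreign DNA. KRAB zinc finger proteins, the type that this cluster mostly encodes, bind DNA through a tandem array of fingers that is usually coded by a single long last exon, and recruit TRIM28 and the histone methyltransferase SETDB1, which also works with HUSH. Their genes arose by tandem duplication and are themselves known to carry methylated lysine 9 over the finger-coding part. ZNF10, also called KOX1, is the source of the KRAB domain widely used as an engineered repressor.

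The peak lists held 4 peaks in the cluster, 2 from each library, and the 2 TASOR KO peaks both lay across annotated transcription starts. The sequences just before those starts, at ZNF84 and ZNF268, are shown because they lie wholly inside a TASOR KO peak. Each is the 250 bases before the start on the plus strand, from the RefSeq promoter table (GRCh38.p14), at chr12:133037259-133037508 for ZNF84 and chr12:133181245-133181494 for ZNF268. Capitals mark CpG dinucleotides in ZNF84, and in ZNF268 the matches to 2 short motifs described below.
ZNF84: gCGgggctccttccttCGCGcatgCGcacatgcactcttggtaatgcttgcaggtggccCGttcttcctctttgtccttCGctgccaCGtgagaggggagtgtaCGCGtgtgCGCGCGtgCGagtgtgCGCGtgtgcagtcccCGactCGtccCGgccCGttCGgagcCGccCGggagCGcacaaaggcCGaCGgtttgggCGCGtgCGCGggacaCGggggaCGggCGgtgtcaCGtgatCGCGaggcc
ZNF268: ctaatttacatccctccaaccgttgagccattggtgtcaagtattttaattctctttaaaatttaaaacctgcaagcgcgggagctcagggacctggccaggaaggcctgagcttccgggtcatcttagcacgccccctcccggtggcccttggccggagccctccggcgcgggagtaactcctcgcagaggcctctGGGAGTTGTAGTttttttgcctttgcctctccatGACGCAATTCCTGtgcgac
The ZNF84 stretch holds 35 CpG dinucleotides and the ZNF268 stretch 13.

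At ZNF84 (gene ID 7637, chr12:133037509-133063299, plus strand) the TASOR KO peak ran from 133034998 to 133041033. It was 6036 bp wide, began 2511 bp before the gene and reached 3524 bp into it. The authors' peak caller gave it a fold enrichment of 3.70 and a −log10 q of 1.31 (q = 0.0495), which ranked it 138 of 427 in its list. In all, 138 TASOR KO peaks had a q no higher than 0.05, and this one was the last of them. The peak also covered 2225 bp of ZNF84-DT, the divergent noncoding transcript on the upstream side, and it was among the wider ones of its list (rank 36 by width, list median 1929 bp).

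The TASOR2 KO peak at ZNF84 lay at the other end of the gene, from 133058863 to 133061888. It was 3026 bp wide and occupied the stretch from 82.8% to 94.5% of the gene's length, ending 1411 bp before the annotated 3′ end. Its fold was 3.73 and its −log10 q 0.758 (q = 0.175), rank 214 of 264, so it was a weak peak by that measure. Between the edges of the TASOR KO and TASOR2 KO peaks lay 17.8 kb.

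ZNF268 (gene ID 10795, chr12:133181495-133214832, plus strand) had the same layout. Its TASOR KO peak was narrow, 1200 bp from 133180476 to 133181675, and lay mostly before the gene: it began 1019 bp upstream of the start and reached 180 bp past it. The fold was 4.03 and the −log10 q 1.98 (q = 0.0105), rank 87 of 427. Its TASOR2 KO peak ran from 133203619 to 133205862, 2244 bp between 66.4% and 73.1% of the gene's length and 8970 bp before the 3′ end. That was the best-ranked peak of the cluster, with a fold of 4.52 and a −log10 q of 1.98 (q = 0.0104), rank 23 of 264. The gap between both ZNF268 peaks was 21.9 kb. Measured from the gene's 5′ end, the TASOR2 KO peak centres lay at nearly equal distances in these genes, 22867 bp in ZNF84 and 23246 bp in ZNF268. Both were near the median over 73 other ZNF genes of known strand with such a peak, 23.7 kb (quartiles 15.2 and 31.8 kb). Exon positions were not used here, so whether those peaks lie over the finger-coding exon is not given.

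**Figure D1:**
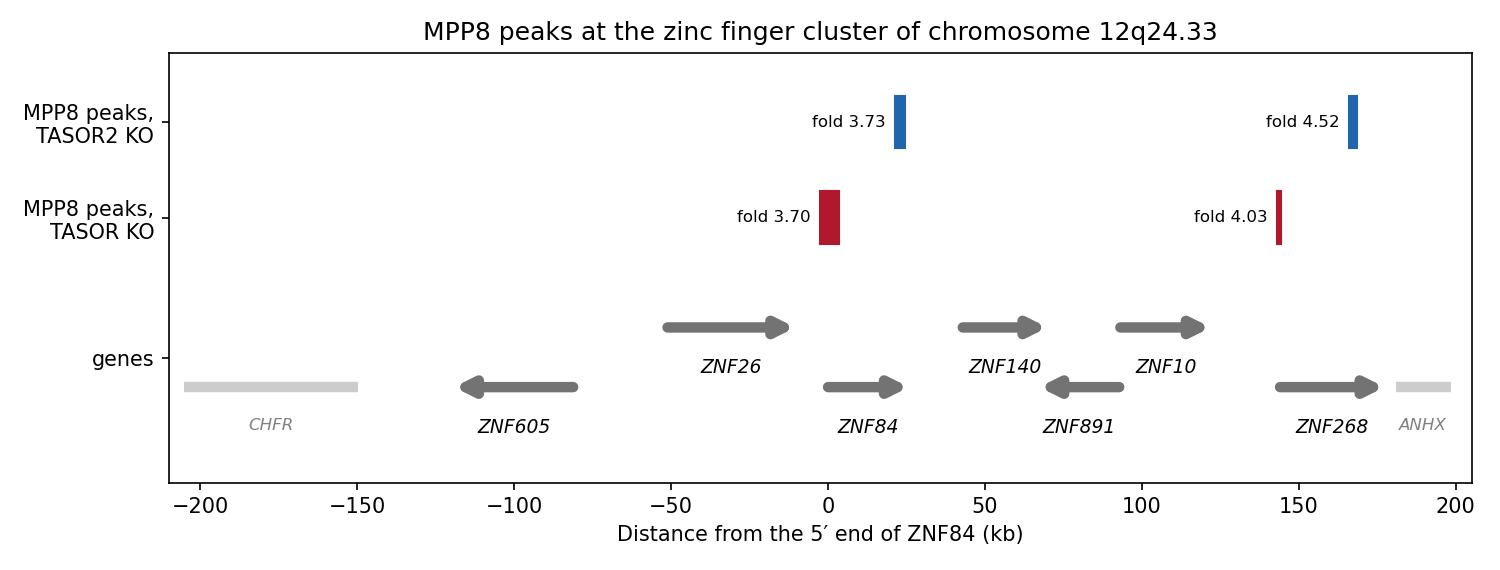
Map of the cluster, with distance from the 5′ end of ZNF84 in kb on the horizontal axis. Arrows are the 7 member genes in their direction of transcription, pale bars are the neighbours CHFR and ANHX, and boxes are the MPP8 peaks of each list with the authors' fold enrichment. The TASOR KO peaks sit on the starts of ZNF84 and ZNF268, and the TASOR2 KO peaks sit downstream inside the same genes.

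Enrichment at the cluster was modest, and its peaks were spread over the ranks, from 23 of 264 to 214 of 264 in TASOR2 KO alone. The TASOR KO list had a median fold of 3.35 and the TASOR2 KO list one of 3.92. Thus both TASOR KO peaks were above their list's median, while in TASOR2 KO the ZNF268 peak was above and the ZNF84 peak below. Folds of the lists range from 2.49 to 6.57 and from 2.61 to 6.01. These values are the authors' own per peak and rank peaks within a list only. The lists also ended at unlike q values, at most 0.460 in TASOR KO and 0.258 in TASOR2 KO. Counts and shares of genes are therefore not like for like between the lists. No read totals come with the lists, and the sequencing depth is therefore unknown.

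**Figure D2:**
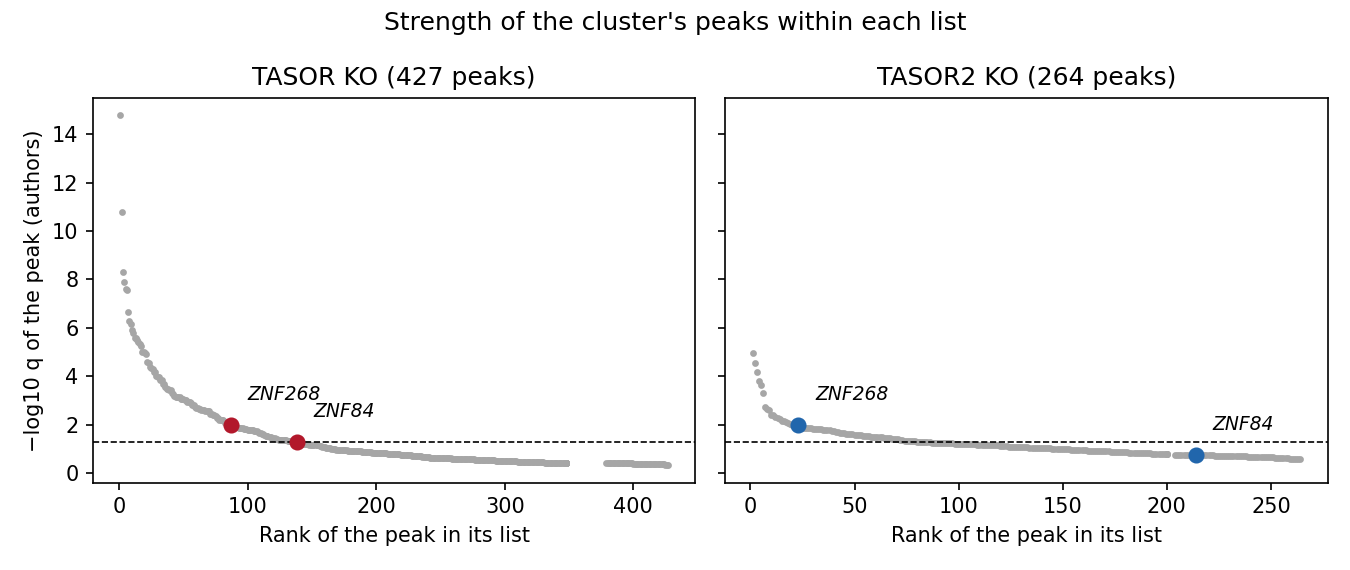
Strength of each peak (−log10 q given by the authors, vertical axis) against its rank within its list (horizontal axis), TASOR KO on the left and TASOR2 KO on the right. Grey points are all peaks, coloured points are the cluster's peaks, and the dashed line is a q of 0.05. The TASOR2 KO peak at ZNF84, rank 214 of 264, is the one below the line.

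The remaining 5 members, all annotated as protein-coding, had 0 peaks in the body or within 5 kb in either list. ZNF26 (chr12:132986367-133027102) came closest, 7896 bp from the TASOR KO peak at ZNF84 and 31.8 kb from the nearest TASOR2 KO peak. ZNF10 (chr12:133130627-133159465) lay 21.0 kb and 44.2 kb from the nearest peak of TASOR KO and TASOR2 KO, and ZNF140 (chr12:133080425-133107428), which encodes a KRAB repressor, lay 39.4 kb and 18.5 kb away. ZNF891 (chr12:133104779-133130274) was 50.2 kb and 42.9 kb away. ZNF605 (chr12:132918306-132956306), the member farthest from the chromosome end, was 78.7 kb and 103 kb away. The peaks of both lists thus fell on the same pair of genes, and none lay at the 3 genes between them.

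The count was 2 of 7 members in TASOR KO, 2 of 7 in TASOR2 KO and 2 of 7 in both, with the same window of 5 kb. Over all protein-coding genes the shares were 1.23%, 1.03% and 0.185%. Of all 510 ZNF genes, 68, 84 and 28 had such peaks. Because the cluster was chosen for these peaks, nothing is read from that difference. On the rest of chromosome 12 the lists held 16 and 7 peaks, and 0 of its other 6 ZNF genes had one within 5 kb. The 5 protein-coding genes that flank the cluster within 200 kb, PGAM5, ANKLE2, GOLGA3, CHFR and ANHX, also had none. ANHX, a homeobox gene, is the last protein-coding gene before the end and lay 12.4 kb from the TASOR2 KO peak in ZNF268.

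The absence of peaks at the other members must be read with the numbering of the calls. Peak numbers rose with position throughout both lists, and they have gaps, so calls were numbered that are not among the peaks analysed here. In TASOR KO the ZNF84 peak is number 3564 and the ZNF268 peak number 3571. The 6 numbers between them belong to the 139 kb from 133041034 to 133180475, which contain ZNF140, ZNF891 and ZNF10 whole, if the numbers follow position there too. That is 43.0 numbers per Mb, against 4.07 per Mb over the 123 Mb of chromosome 12 from the first to the last TASOR KO peak. In TASOR2 KO the peaks at ZNF84 and ZNF268 carry the consecutive numbers 543 and 544, so no number falls between them. TASOR2 KO numbers were sparse along the whole chromosome, 36 over 101 Mb from its first to its last peak, or 0.356 per Mb. Nothing is therefore read from the lack of a TASOR2 KO number there beside the 6 of TASOR KO. On the centromeric side, 16 TASOR KO numbers and 3 TASOR2 KO numbers are missing before ZNF84, over stretches of 5950 kb and 616 kb that reach beyond ZNF605 and ZNF26. A lack of a TASOR KO peak at the 3 genes in between is therefore no measure of a lack of MPP8 there. No source used here says how the peaks were selected.

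The layout at ZNF84 and ZNF268 was then set beside that in other ZNF genes. Strand was known for 431 of the 510 ZNF genes, and the strongest peak of each list in the body or within 5 kb was used for each gene. Without the cluster's own genes, the TASOR KO peak covered the annotated 5′ end in 28 of 58 genes (48.3%, exact binomial 95% interval 35.0 to 61.8), and the TASOR2 KO peak did so in 0 of 73 (upper bound 4.93%). The TASOR2 KO peak was centred past the gene's midpoint in 65 of 73 (89.0%, 79.5 to 95.1), against 21 of 58 for TASOR KO (36.2%, 24.0 to 49.9). The median centre lay at 88.1% of the gene's length in TASOR2 KO and at 7.96% in TASOR KO. Beside these, the centres of the TASOR2 KO peaks lay at 88.7% in ZNF84 and 69.7% in ZNF268, and those of the TASOR KO peaks at 1.96% and −1.26%. Neighbouring genes can share a peak (50 distinct TASOR KO and 65 distinct TASOR2 KO peaks). The intervals, which cover counting error only, are therefore too narrow. Sharing also bears on the shares themselves, because a peak on the 5′ end of a gene can count as past its neighbour's midpoint. For example, the TASOR KO peak on the 5′ end of ZNF75A was also the strongest one within 5 kb of ZNF263, centred at 125% of its length. ZNF263 had another TASOR KO peak in its body, which the choice of the strongest peak left out.

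Peaks of both lists were found at 23 other ZNF genes of known strand, and the strongest peak of each list was again the one placed. A TASOR KO peak on the 5′ end together with a TASOR2 KO peak inside the gene, as in ZNF84 and ZNF268, was present in 9 of them: ZNF107, ZNF121, ZNF174, ZNF224, ZNF227, ZNF266, ZNF75A, ZNF808 and ZNF850. The reverse layout was present in 0 of the 23, which follows from the 0 strongest TASOR2 KO peaks on a 5′ end given above. The remaining 14 had neither layout by their strongest peaks. Weaker peaks of these genes were not placed. Counted singly, the TASOR KO peak covered the 5′ end in 10 of the 23 and the TASOR2 KO peak lay inside in 21. Those counts leave little room for another number with both. Most of these genes rest on at least 1 weak peak: with a q of 0.05 or less in both lists, 2 of the 23 remained, ZNF266 and ZNF850, and both had this layout, as did ZNF268, while ZNF84 was lost. The chromosome 12 genes therefore shared their layout with genes on other chromosomes, and it is not particular to this cluster.

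**Figure D3:**
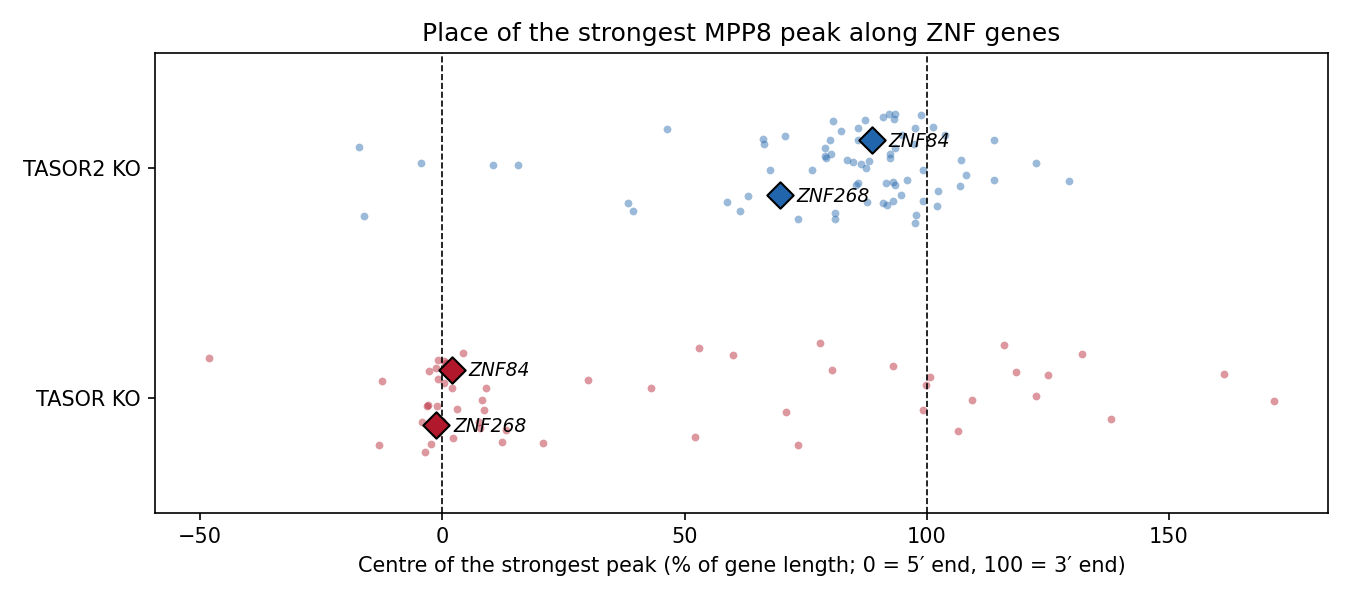
Centre of the strongest peak of each list along ZNF genes of known strand, as a percentage of gene length (0 is the 5′ end and 100 the 3′ end), with the lists on separate rows and points spread vertically for legibility. Diamonds are ZNF84 and ZNF268 and small points the other ZNF genes. TASOR2 KO points gather in the downstream part of genes, around a median of 88.1% without the diamonds, and some lie beyond the 3′ end. TASOR KO points gather at the 5′ end, with others spread along the gene and beyond the 3′ end.

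Among ZNF clusters of like size, the run from ZNF205 to ZNF597 on chromosome 16 had a TASOR KO peak at 5 of 7 genes and a TASOR2 KO peak at 3 of 7, and 3 had both (ZNF174, ZNF263 and ZNF75A). The run from ZNF722 to ZNF117 on chromosome 7 had 2 of 10 and 4 of 10, and 2 had both (ZNF107 and ZNF273). With a q of 0.05 or less the counts on chromosome 16 were 3 of 7 and 0 of 7. On chromosome 7 they were 1 of 10 and 2 of 10. In either run 0 genes kept both. On chromosome 12 it was 1 of 7, ZNF268, a gene for whose peaks the cluster was chosen. Over all ZNF genes 4 of 510 kept both (0.784%), and over all protein-coding genes 5 of 20037 (0.0250%). These counts stand beside those of the chromosome 12 cluster as a description with no test, since the clusters were picked with their peaks known. In the chromosome 16 run the strongest TASOR KO peak covered the 5′ end in 4 of 5 genes, and in the chromosome 7 run in 1 of 2. The strongest TASOR2 KO peak did so in 0 of 3 and 0 of 4.

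Of 12 genes for HUSH and its partners, TASOR2 alone had a peak within 5 kb in TASOR KO and ATF7IP2 alone in TASOR2 KO. Over all protein-coding genes the shares were 1.23% and 1.03%, and nothing is read from 1 gene of 12. TRIM28 and SETDB1, the partners of KRAB proteins, had none, like most protein-coding genes.

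The promoters of the 7 members were compared for features that the choice of genes did not use. All 7 matched the RefSeq promoter table, with 8 windows of 300 bases (250 before and 50 after a start), as ZNF84 has a pair of starts 71 bp apart. Both ZNF84 windows and the ZNF268 window lay wholly in a TASOR KO peak, and none of the 8 met a TASOR2 KO peak. ZNF84 stood at the upper extreme of CpG content. Its windows had an observed over expected CpG ratio of 1.30 and 1.33, above 99.8% and 99.9% of the 35116 windows in the table (median 0.579). ZNF268 was unlike it, with a ratio of 0.856 and the lowest GC content of the 8 windows, 56%, against 69.3% and 73.7% in ZNF84. The members without a peak lay between them, from 0.866 in ZNF26 to 1.16 in ZNF10. The TASOR KO peaks of the cluster thus covered both the highest and the lowest CpG ratio among its promoters.

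**Figure D4:**
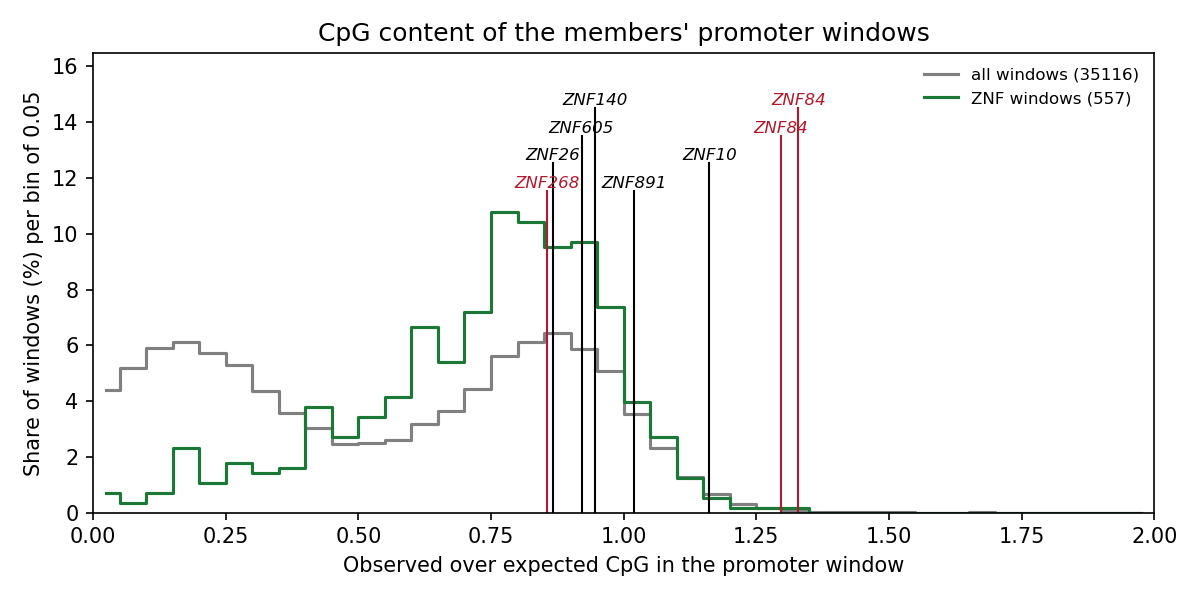
Distribution of the observed over expected CpG ratio (horizontal axis) as the share of promoter windows in bins of 0.05 (vertical axis), for all 35116 windows in grey and 557 ZNF windows in green. Vertical lines are the 8 windows of the cluster, red where a TASOR KO peak covers them. The red lines are the lowest line, ZNF268 at 0.856, and the highest pair, ZNF84 at 1.30 and 1.33.

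A short sequence, ACTACA followed by any 2 bases and TCCC, recurred in the promoters of 4 of the 7 genes, and it was searched on both strands after these promoters had been read. Its letters are those of the core of the known ZNF143 motif. It was found in 1.75% of all 35116 windows and in 10.8% of the 557 ZNF windows. The matches are shown with 7 bases on either side and the motif's fixed letters in capitals, all from the strand opposite to the gene, to let the bases around each match be compared. They were picked for the motif and are no measure of how alike the promoters are.
ZNF605: cgctggaACTACActTCCCggggggc
ZNF605: gcgcagaACTACAttTCCCagcgtcc
ZNF26: cggaaaaACTACAtcTCCCacaatcc
ZNF140: tgcgacaACTACAatTCCCagagcca
ZNF140: tcaagaaACTACAatTCCCagaaacc
ZNF268: caaaaaaACTACAacTCCCagaggcc
ZNF84, ZNF891 and ZNF10 had no match in these windows. Of the genes whose start lay in a TASOR KO peak, ZNF268 thus had a match and ZNF84 had none, while 3 members without a peak had at least 1.

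ZNF140 and ZNF268 also shared a 13-base run, GACGCAATTCCTG, close before the start. It is shown in capitals because it was in 2 of the 35116 windows, theirs. It is the longest run that these 2 windows share on the gene strand, it too was chosen after the sequences had been read, and a run of that length is rare whatever its letters. Over the 21 pairs of members the longest shared run had 7 to 13 bases, and ZNF84 and ZNF10 also shared 13.
ZNF140: ttctgaaGACGCAATTCCTGcgacgcc
ZNF268: tctccatGACGCAATTCCTGtgcgaca
In ZNF140 it ends 39 bases before the start and in ZNF268 7 bases before it. The ZNF140 start in the promoter table, 133080923, lies inside the gene's annotated extent. ZNF891 and ZNF10 are transcribed away from each other from starts 353 bp apart, and their promoter windows overlap by 148 bp.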

How the data were processed

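MPP8 ChIP-seq peak lists of 2 samples, TASOR KO and TASOR2 KO, were analysed, grouped by the samples' titles, and the other 13 samples were not used here. Per the labels' protocols, 1% formaldehyde fixation lasted 10 min, micrococcal nuclease and sonication fragmented the chromatin, and mouse chromatin (1 part in 40) was added to 80 µg as a spike-in. The tools were MACS2, deepTools and Bowtie2 2.3.5.1 and the builds mm9 and hg38, per the submitters' processing notes. No source used here gives the control, the thresholds or the use of the spike-in. The highest q was 0.460 in the TASOR KO list and 0.258 in the TASOR2 KO list, so the lists may have been cut differently. The deposited lists have no header and 9 columns in MACS2's order for broad peaks. Each deposited score equals 10 times the −log10 q, rounded down (427 and 264 peaks). The authors' values per peak, as deposited, are a fold enrichment (a ratio), a −log10 p and a −log10 q.

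Coordinates were made 1-based, and genes, strands and sequences came from RefSeq tables of GRCh38.p14. A gene had a peak where 1 bp or more of it lay in the body or within 5 kb. The planned comparison of protein sequences was not run. The overlap step was tested on simulated data. Shares carry exact Clopper-Pearson intervals. Alternatives were windows of 0, 1 and 10 kb, peaks with a q of 0.05 or less, the higher-scoring part of each list, peak centres and the nearest member only. The members and lists were chosen with earlier results of these data known. Named were all members, protein-coding genes within 200 kb, noncoding genes met by a peak, and genes of the complex list with a peak. The genes of the shared layout, TRIM28, SETDB1 and the named genes of other clusters were added after their values were seen. Computation used Python 3.11.15, pandas 2.3.3, scipy 1.17.1 and matplotlib 3.10.9.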

Additional observations from a re-analysis of the deposited data

How the results depend on the processing

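The counts of members stayed within 1.5 times under the other windows, peak centres and the nearest member only. The TASOR KO count rose from 2 to 3 of 7 with the window of 10 kb, as ZNF26 then had a peak. With peaks of a q of 0.05 or less, and with the higher-scoring part of each list, the TASOR2 KO count fell to 1 of 7, and so did the count in both, as the TASOR2 KO peak in ZNF84 was lost. Between peak centres the distance was 22360 bp in ZNF84 and 23665 bp in ZNF268. At a q of 0.05 or less the ZNF84 distance could not be given. The chromosome 16 cluster then had 0% of genes with a TASOR2 KO peak, all ZNF genes 6.47% (TASOR KO) and 4.90% (TASOR2 KO), and all protein-coding genes 0.574% and 0.339%. Counting gene bodies only, all protein-coding genes had 1.08% and 0.858%. These falls follow from fewer peaks or a narrower window. Chosen after seeing the data, a q of 0.05 or less and leaving out chromosome 19 moved the share of ZNF genes with a TASOR KO peak on the 5′ end, ZNF84 and ZNF268 included, from 50% to 65.5% and 69.2%. The cause was not tested. Outside chromosome 19 and without these members it was 7 of 11 (63.6%, 30.8 to 89.1). The number of other ZNF genes with the layout of ZNF84 and ZNF268 fell from 9 to 2 at a q of 0.05 or less. The TASOR2 KO share on the 5′ end was 0% at a q of 0.05 or less, without chromosome 19, under any annotated start and without the members. All shares on the 5′ end count only the strongest peak per gene and list. Of 65 alternative values, 49 kept to the main value. Kept meant within 1.5 times for counts, within the exact interval for shares and equal for distances. For 2 of the 7 members that interval is wide, 3.67 to 71.0%. The TASOR2 KO fall to 1 of 7 thus moved as a count but was kept as a share, 28.6% to 14.3%. The number kept is therefore no measure of how stable the shares of small clusters are. No paired analysis was possible because there was 1 library per genotype, and none could be left out. Depth is unknown.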
